A study of Mus musculus with 30 samples.

Results

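The subject here is the difference between genotypes in the 9 h response of mouse dendritic cells to a mold: whether the change of each gene between the time prior to challenge (0 h) and 9 h after challenge was the same in Nlrx1 deficient cells (KO) as in wildtype cells (WT). It was taken as the interaction, the log2 change of 9 h over 0 h in KO minus the same change in WT, for all 12393 genes that passed a filter on low counts. The members are 12 libraries of the 30 in the series: 3 of KO cells at 9 h, 3 of KO cells at 0 h, 3 of WT cells at 9 h and 3 of WT cells at 0 h. A positive interaction means that a gene increased more, or decreased less, in KO than in WT. Bone marrow from femur and tibia of both genotypes had been grown in GM-CSF, the growth factor used to make dendritic cells in culture, plated, and challenged with live conidia of the Aspergillus fumigatus strain AF29 at as many conidia as cells. The 0 h cells had no conidia. The sources used here do not give the mice's age, sex or strain background, nor the part of Nlrx1 that the mutation removes. Nothing in the labels says that replicates came from separate animals or cultures, so p-values measure the spread between these libraries, which may be technical.

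Aspergillus fumigatus is inhaled as dormant conidia that swell and germinate over hours, which exposes beta-glucan and other wall sugars to receptors such as dectin-1 on phagocytes. The signal runs through kinases to NF-kappaB, AP-1 and EGR transcription factors, and the early targets include immediate early genes and the cytokine TNF. Nlrx1 encodes a mitochondrial protein of the NOD-like receptor family, known as a modulator of antiviral and NF-kappaB signaling and of mitochondrial metabolism.

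The labels were first checked at the targeted gene. Nlrx1 had 11, 8 and 0 counts in KO at 9 h and 2, 7 and 5 counts in KO at 0 h, against 38, 27 and 46 counts in WT at 9 h and 38, 19 and 24 counts in WT at 0 h. Every KO library was below every WT library. The library with 0 counts allows up to 3. Total counts ran from 1973232 to 3163518 over the 12 libraries. Of 12 markers of GM-CSF dendritic cells (Itgax, MHC class II genes and others), 11 had counts in KO at 9 h, 12 in KO at 0 h, 12 in WT at 9 h and 11 in WT at 0 h. Summed macrophage markers were lower in KO at both times, at 10103 to 10854 CPM (library-scaled counts per 1e6) in KO at 9 h and 8890.0 to 9293 CPM in KO at 0 h, against 12074 to 12692 CPM in WT at 9 h and 11419 to 11605 CPM in WT at 0 h, with all 16 of the list detected in each group. Neutrophil markers summed to 1226 to 1332 CPM in KO at 9 h and 1334 to 1402 CPM in KO at 0 h, against 1582 to 1738 CPM in WT at 9 h and 1588 to 1656 CPM in WT at 0 h, and Ctsg, a granule protease, was at 0 in all 12. Lymphocyte markers summed to at most 7.02 CPM per list in each library. Of 10 erythroid and megakaryocyte markers, 6 were at 0 in all 12 libraries, the hemoglobin genes among them. That list still summed to 367 to 451 CPM per library over the 4 groups, and Pf4 and Ppbp were its 2 members tested. In bulk samples, fewer cells of a type and less RNA per cell cannot be told apart, and the part of these marker differences in the results below was not tested.

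The 9 h responses of both genotypes involved many genes, and the interaction passed for few. In simulated counts the fit recovered 25 of 100 interactions of 1.5-fold and 73 of 100 of 2-fold, so differences may have been missed. By edgeR's quasi-likelihood test, with p-values adjusted by Benjamini-Hochberg and a threshold of 0.05 (used for every adjusted p below), 1346 genes (10.9% of those tested) changed in KO at 9 h over 0 h, 726 of them higher (5.86%) and 620 lower (5%). In WT 1286 genes (10.4%) changed, 690 higher (5.57%) and 596 lower (4.81%). The interaction passed for 13 genes (0.105%), 11 of them higher (0.0888%) and 2 lower (0.0161%). An unadjusted p under 0.05 was reached by 805 genes (6.5%), 399 higher (3.22%) and 406 lower (3.28%), and the median interaction over all genes tested was -0.01. The 11 with a positive interaction were Egr1, Mt1, Plk2, Gm42418, Cdk18, Olfm1, Fnip2, Epc1, Gm8543, Tnf and Nectin1. The 2 with a negative one were Rplp1 and Gm2099. Of the 13, 10 are protein-coding. Without the KO 0 h library of replicate 1 the count was 3, and without the WT 9 h library of replicate 1 it was 25. Egr1, Mt1 and Plk2 passed in each of the 12 fits that left out 1 library, while 9 of the 13 passed in 6 or fewer of these fits. Fitted to the 12 libraries alone, 4 genes passed, 3 of them among the 13, and Plk2 and Tnf did not (adjusted p = 0.118 and 0.288). With the share of counts in rRNA genes of each library as a covariate, an alternative chosen after seeing the data, 0 genes passed in edgeR and 632 had an unadjusted p under 0.05. That share was highest in WT at 0 h, so such a fit can hardly separate it from the interaction. DESeq2, without that covariate, called 16 genes, 10 of them among the 13.

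**Figure D1:**
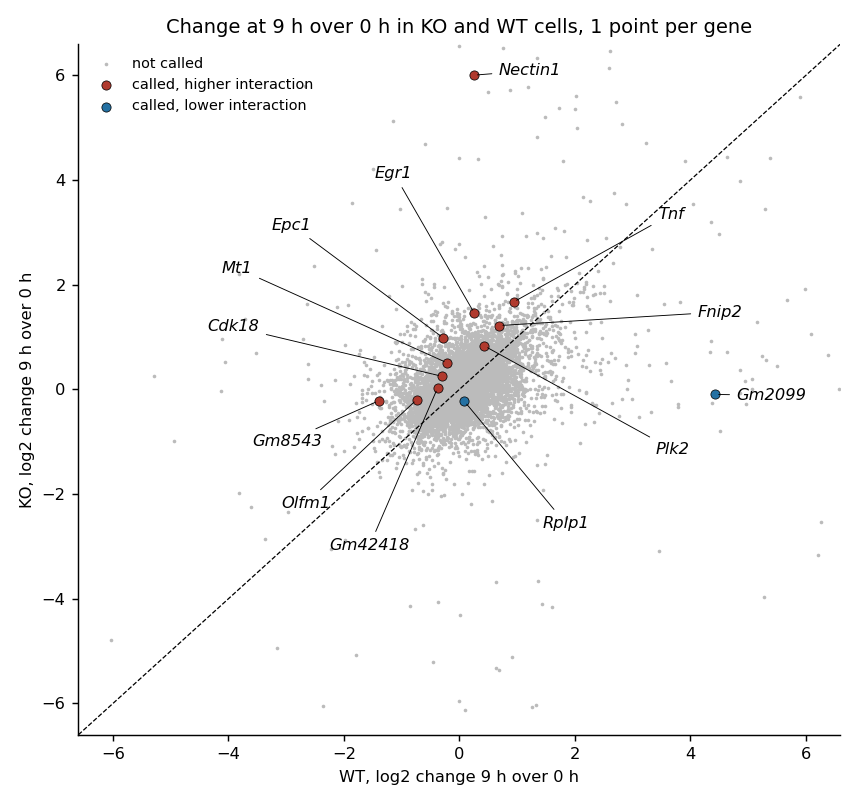
Log2 change of 9 h over 0 h in KO (vertical) against WT (horizontal), 1 point per gene, with genes past the interaction threshold in color and the dashed line at equal change. The 11 genes with a higher interaction lie above the line and the 2 with a lower one, Rplp1 and Gm2099, below it. A further 23 genes lie beyond the axes.

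The tests of KO against WT at each time place these 13 genes in different patterns. At 9 h alone, 627 genes (5.06%) differed between KO and WT, 266 of them higher in KO (2.15%) and 361 lower (2.91%). At 0 h alone 622 genes (5.02%) did, 280 higher in KO (2.26%) and 342 lower (2.76%). Mt1, Tnf and Olfm1 did not pass at 0 h and were higher in KO at 9 h. Egr1 and Plk2 were lower in KO at 0 h and higher in KO at 9 h. Another 6 genes, Gm42418, Cdk18, Fnip2, Epc1, Gm8543 and Nectin1, were lower in KO at 0 h and did not pass at 9 h, and Gm2099 was higher in KO at 0 h and did not pass at 9 h. Rplp1 was lower in KO at both times. For 10 of the 13 the genotypes differed at 0 h, before conidia were added. Both tests use libraries of the interaction that picked these genes, so such counts are in part built into the choice. The share of counts in small RNA genes, given further on, also differs by genotype at both times. With that share as a covariate, the KO minus WT value at 9 h no longer passed for the 5 genes higher in KO. The 0 h values of Egr1 and Plk2 did not pass either (adjusted p = 0.960 and 0.106). With the rRNA share as the covariate these 0 h values did not pass (adjusted p = 0.404 and 0.259), while all 5 passed at 9 h. The rRNA share itself was separate by genotype at 0 h, at 4.72% to 5.28% in KO and 7.09% to 7.83% in WT. With the small RNA share the 9 h value turned to -0.12 (SE 0.12) for Plk2 and was 0.64 (SE 0.30) for Egr1. It was 0.68 for Mt1, 0.39 for Tnf and 0.49 for Olfm1, with adjusted p-values of 0.825 for Mt1 and 1 for the others. Without the covariate the SE was 0.04 for Plk2 and 0.10 for Egr1. In the 12 libraries this share ran from 3.07% to 3.62% in KO and from 5.48% to 6.53% in WT. That fit can therefore hardly separate the share from genotype, and no conclusion is drawn from the lost calls.

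Among the regulators, Egr1 gave the smallest p. It encodes a zinc finger transcription factor that is switched on within minutes of growth factor or pattern receptor signaling. Egr1 (chromosome 18, positions 34859823 to 34864984, plus strand; build GRCm38, as for the genes below) had 95.4, 105.3 and 81.8 CPM in KO at 9 h and 36.5, 34.9 and 31.8 CPM in KO at 0 h, against 55.6, 52.6 and 53.5 CPM in WT at 9 h and 47.0, 42.0 and 46.1 CPM in WT at 0 h. The 9 h KO libraries were the highest and the 0 h KO libraries the lowest, and no 2 of the groups overlapped. The log2 change was 1.46 ± 0.11 (SE; SE also below for log2 values) in KO and 0.26 ± 0.10 in WT, where it did not pass (adjusted p = 0.123), and the interaction was 1.20 ± 0.15 (adjusted p = 0.000182). KO minus WT was 0.81 at 9 h and -0.39 at 0 h (adjusted p = 0.0399).

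Plk2, a kinase gene of the polo-like family and an immediate early gene (chromosome 13, positions 110395046 to 110400844, plus strand), rose in both genotypes. It had 677, 690 and 629 CPM in KO at 9 h and 358, 375 and 391 CPM in KO at 0 h, against 619, 571 and 588 CPM in WT at 9 h and 433, 443 and 440 CPM in WT at 0 h. All KO libraries were above the WT ones at 9 h and below them at 0 h. The log2 change was 0.83 ± 0.05 in KO and 0.43 ± 0.04 in WT, with an interaction of 0.39 ± 0.06 (adjusted p = 0.00557). Epc1, a subunit of the NuA4 histone acetyltransferase complex (chromosome 18, positions 6435951 to 6516108, minus strand), had 30.1, 29.7 and 28.1 CPM in KO at 9 h and 9.51, 18.7 and 15.5 CPM in KO at 0 h, against 19.1, 26.3 and 21.6 CPM in WT at 9 h and 25.4, 27.3 and 28.6 CPM in WT at 0 h. The KO 0 h libraries were the lowest and were also the most spread in relative terms. Epc1 rose in KO by 0.98 ± 0.18, its WT change of -0.28 ± 0.17 did not pass, and its interaction was 1.26 ± 0.25 (adjusted p = 0.0398). Epc1 passed in 2 of the 12 fits that left out 1 library.

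The list of immediate early genes, early targets of kinase signaling, had 34 members tested. Of these, 2 were called higher in the interaction and 0 lower, against 0.0888% and 0.0161% of all genes. Of the 34, 23 had a positive and 11 a negative interaction. An unadjusted p under 0.05 was reached by 9, all of them with a positive value, against 3.22% of all genes in that direction. The list's median interaction was 0.18, beside -0.01 over all genes, with a median log2 change of 0.37 in KO and 0.22 in WT. The other 7 of these 9 did not pass the adjusted test. Dusp1, a MAP kinase phosphatase, averaged 79.3 ± 2.55 CPM (SD, n = 3 here and in every group average below) in KO at 9 h and 37.1 ± 5.91 CPM in KO at 0 h, against 62.9 ± 4.29 CPM in WT at 9 h and 41.9 ± 3.39 CPM in WT at 0 h. Fos, a subunit of AP-1, averaged 41.4 ± 3.03 CPM in KO at 9 h and 32.1 ± 3.20 CPM in KO at 0 h, against 38.0 ± 2.77 CPM in WT at 9 h and 42.3 ± 3.54 CPM in WT at 0 h. The remaining 5 were Junb, Btg2, Phlda1, Dusp4 and Fosl2. Their interactions lay between 0.40 for Fosl2 and 0.59 for Dusp4. Fosl2, an AP-1 subunit, was among the next genes by p (adjusted p = 0.234): it fell in WT by 0.55 and had a change of -0.16 in KO that did not pass.

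**Figure D2:**
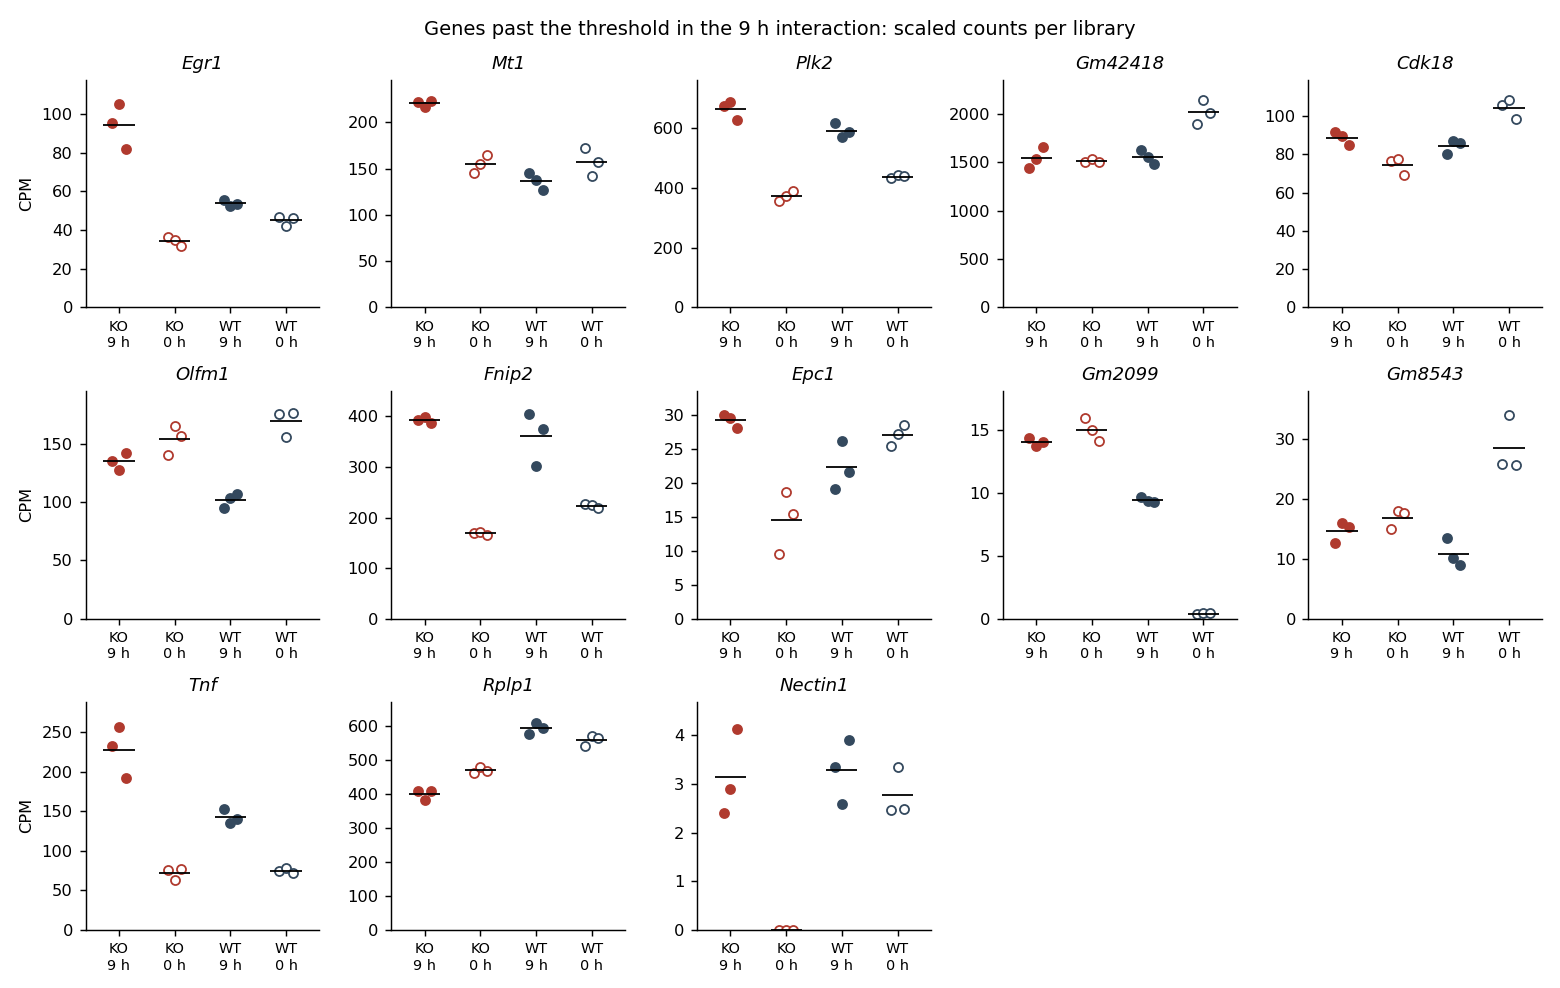
Scaled counts (CPM, linear axis starting at 0) of the 13 genes past the interaction threshold, 1 point per library and a line at the group mean, with KO in red, WT in blue, 9 h filled and 0 h open. Tnf, Mt1 and Olfm1 separate the genotypes at 9 h, whereas Gm42418, Cdk18, Fnip2, Gm8543 and Nectin1 separate them at 0 h.

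Of the cytokines, Tnf passed. TNF is the cytokine that activates endothelium and recruits and arms neutrophils. Tnf (chromosome 17, positions 35199381 to 35202007, minus strand) had 233, 257 and 192 CPM in KO at 9 h and 75.1, 62.6 and 77.3 CPM in KO at 0 h, against 153, 135 and 140.4 CPM in WT at 9 h and 73.8, 77.6 and 72.2 CPM in WT at 0 h. The genotypes overlapped at 0 h and did not at 9 h. Tnf rose in both genotypes, by 1.67 ± 0.11 in KO and 0.94 ± 0.11 in WT, with an interaction of 0.73 ± 0.15 (adjusted p = 0.0446). It passed in 2 of the 12 fits without 1 library, and the highest adjusted p among them was 0.223.

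Of 28 cytokines and chemokines tested, 1 was called (Tnf, higher), where 0.0888% of all genes were called higher. An unadjusted p under 0.05 was reached by 3 with a positive value, Tnf, Cxcl2 and Inhba, and by 5 with a negative value, Cxcl10, Ccl22, Il1b, Ccl9 and Ccl6, against 3.22% positive and 3.28% negative over all genes. Of the 28, 16 had a positive and 12 a negative interaction, with a median of 0.14. Cxcl2, a neutrophil chemoattractant, had 267, 314 and 232 CPM in KO at 9 h and 82.6, 78.7 and 74.2 CPM in KO at 0 h, against 220.2, 168 and 194 CPM in WT at 9 h and 87.6, 70.1 and 79.2 CPM in WT at 0 h. It rose in both genotypes, and its interaction of 0.49 ± 0.16 did not pass (adjusted p = 0.415). Il1b, the inflammasome-processed cytokine, was already higher in KO at 0 h, at 51.7 ± 3.57 CPM in KO and 25.9 ± 3.31 CPM in WT. At 9 h it averaged 59.7 ± 3.57 CPM in KO and 37.3 ± 2.77 CPM in WT. Its interaction was -0.32 ± 0.15 (adjusted p = 0.764). Among the 28 genes of NF-kappaB feedback and its subunits the median interaction was 0.03. Nfkbia, the inhibitor induced by NF-kappaB itself, rose by 0.42 in KO and 0.43 in WT, with an interaction of -0.01 ± 0.11.

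Mt1 was the member of the metal handling group that passed. It encodes metallothionein 1, a small cysteine-rich protein that binds zinc and copper. Mt1 (chromosome 8, positions 94179082 to 94180327, plus strand) had 222, 216 and 223 CPM in KO at 9 h and 146, 156 and 165 CPM in KO at 0 h, against 145, 138 and 127 CPM in WT at 9 h and 173, 142 and 158 CPM in WT at 0 h. The KO libraries at 9 h were above all others, and the genotypes overlapped at 0 h. Mt1 rose in KO by 0.50 ± 0.07, its WT change of -0.21 ± 0.07 did not pass (adjusted p = 0.0738), and its interaction was 0.71 ± 0.10 (adjusted p = 0.00172). Mt2, its neighbor and close paralog, averaged 47.9 ± 2.03 CPM in KO at 9 h and 34.8 ± 6.58 CPM in KO at 0 h, against 20.4 ± 2.76 CPM in WT at 9 h and 22.3 ± 4.64 CPM in WT at 0 h, with an interaction of 0.58 that did not pass (unadjusted p = 0.00571). Of the 19 iron and metal handling genes tested, 4 had an unadjusted p under 0.05, all positive (3.22% over all genes): Mt1, Mt2, Ireb2 and Hmox1. The list's median interaction was 0.00, with 9 positive and 10 negative members. Hmox1, heme oxygenase, rose by 1.60 in KO and 1.35 in WT (interaction 0.24 ± 0.09, adjusted p = 0.503).

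Promoter windows of 6 of the 13 genes, from 250 bases before to 50 after the annotated start, were taken from RefSeq (GRCm38.p6) and searched on both strands. The motifs were a loose form of the metal response element core (TGCNCNC), the cAMP response element TGACGTCA, the EGR site GCGNGGGCG, and the kappaB and CArG consensus sites. Mt1 and Plk2 are shown as the windows of 2 of the 3 genes that passed in every fit without 1 library, Mt1 because metal response elements are known for metallothionein genes and Plk2 because its window was the one of those searched with a cAMP response element. Capitals mark the 3 metal response cores in Mt1 (chr8:94178839-94179138, plus strand) and the cAMP response element in Plk2 (chr13:110394794-110395093, plus strand), written 5′ to 3′.
Mt1: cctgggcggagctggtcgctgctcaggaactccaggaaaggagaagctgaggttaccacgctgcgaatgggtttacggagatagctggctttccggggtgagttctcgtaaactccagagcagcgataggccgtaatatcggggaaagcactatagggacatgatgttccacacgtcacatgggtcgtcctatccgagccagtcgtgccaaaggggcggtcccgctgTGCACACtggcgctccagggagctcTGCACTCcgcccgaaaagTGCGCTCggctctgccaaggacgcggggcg
Plk2: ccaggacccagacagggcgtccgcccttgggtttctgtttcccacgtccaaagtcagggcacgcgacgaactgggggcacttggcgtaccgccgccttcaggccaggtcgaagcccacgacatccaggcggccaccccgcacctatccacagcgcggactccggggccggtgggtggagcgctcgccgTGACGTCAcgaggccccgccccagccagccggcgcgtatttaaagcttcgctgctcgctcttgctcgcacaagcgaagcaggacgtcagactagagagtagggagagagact
The metal response core as searched, with any base at each N, is short and is not particular to Mt1. Each of the 7 windows searched held at least 1, and those of Cdk18, Fnip2 and Plk2 held 3 as well. It was present in 51.0% of all 32851 promoter windows. Of all windows, 1.79% held the cAMP response element. The Tnf window held no kappaB match, which says only that these letters are not in it (4.51% of all windows hold one). The EGR site was present in 1 of the 2 Olfm1 windows and in 5.55% of all windows. A match is a description of the sequence and not a measured binding site.

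Cdk18, Fnip2 and Olfm1 belonged to none of the lists. Cdk18, a cyclin-dependent kinase gene (chromosome 1, positions 132112237 to 132139684, minus strand), had 91.7, 89.4 and 84.7 CPM in KO at 9 h and 76.6, 77.6 and 69.3 CPM in KO at 0 h, against 80.5, 86.9 and 86.0 CPM in WT at 9 h and 106, 108 and 98.3 CPM in WT at 0 h. The genotypes overlapped at 9 h and were separate at 0 h. Cdk18 rose in KO by 0.25 ± 0.07 and fell in WT by 0.30 ± 0.07, with an interaction of 0.55 ± 0.10 (adjusted p = 0.0274).

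Fnip2, a partner of folliculin in nutrient and AMPK signaling (chromosome 3, positions 79455974 to 79567796, minus strand), had 392, 399 and 388 CPM in KO at 9 h and 170.2, 171 and 165 CPM in KO at 0 h, against 405, 303 and 375 CPM in WT at 9 h and 227, 224 and 219 CPM in WT at 0 h. It rose in both, by 1.22 ± 0.07 in KO and 0.69 ± 0.07 in WT (interaction 0.53 ± 0.10, adjusted p = 0.0398). The 9 h values overlapped, with 1 WT library well below the other 2. Olfm1, a secreted olfactomedin-domain glycoprotein gene (chromosome 2, positions 28192992 to 28230736, plus strand), had 135, 127 and 142 CPM in KO at 9 h and 140.2, 165 and 156 CPM in KO at 0 h, against 94.5, 103 and 107 CPM in WT at 9 h and 176, 156 and 177 CPM in WT at 0 h. WT at 9 h was below all other libraries. Olfm1 fell in WT by 0.74 ± 0.07, and its KO change of -0.19 ± 0.07 did not pass (interaction 0.54 ± 0.10, adjusted p = 0.0274).

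Of 20 hypoxia genes tested, 16 had a positive and 4 a negative interaction, and the median was 0.24. An unadjusted p under 0.05 was reached by 6 positive members (Ero1l, Slc2a1, Hilpda, Bnip3, Ak4 and Egln3) and 1 negative one (Bnip3l), where 3.22% of all genes were positive and 3.28% negative. Slc2a1, the glucose transporter GLUT1, was the nearest to the threshold (interaction 0.34 ± 0.08, adjusted p = 0.169). It had 221, 243 and 231 CPM in KO at 9 h and 228, 234 and 231 CPM in KO at 0 h, against 201, 193 and 211 CPM in WT at 9 h and 252, 248 and 266 CPM in WT at 0 h. It fell in WT by 0.34 ± 0.06. Egln3, the oxygen-sensing prolyl hydroxylase, averaged 22.0 ± 1.5 CPM in KO at 9 h and 7.64 ± 2.04 CPM in KO at 0 h, against 19.3 ± 3.38 CPM in WT at 9 h and 14.1 ± 1.47 CPM in WT at 0 h. For Egln3 the genotypes overlapped at 9 h and were separate at 0 h. Of 25 glycolysis genes the median interaction was 0.08, and at an unadjusted p under 0.05 the value was positive for 4 (3.22% over all genes) and negative for 1 (3.28% over all genes).

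Of the ribosomal genes, Rplp1 was lower. It encodes an acidic phosphoprotein of the large subunit's stalk (chromosome 9, positions 61913284 to 61914542, minus strand) and had 408, 382 and 410.2 CPM in KO at 9 h and 461, 481 and 466 CPM in KO at 0 h, against 576, 609.9 and 593 CPM in WT at 9 h and 540.3, 571 and 564 CPM in WT at 0 h. KO was below WT at both times, and the gap was wider at 9 h. Rplp1 fell in KO by 0.23 ± 0.05, its WT change of 0.09 ± 0.05 did not pass, and its interaction was -0.32 ± 0.07 (adjusted p = 0.0466). It passed in 1 of the 12 fits without 1 library and did not pass among protein-coding genes alone.

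Of 80 cytosolic ribosomal protein genes tested, 62 had a negative interaction, with a median of -0.15. Of these, 22 had a negative value at an unadjusted p under 0.05, against 3.28% of all genes in that direction, and 0 had a positive one. Over all 80, the fitted change was negative for 76 in KO and 50 in WT. Of the 80, 21 fell in KO, where 5% of all genes did. In WT 5 fell and 1 rose, beside 4.81% and 5.57% of all genes. The interactions of the 22 ran from -0.67 for Rpl14 to -0.15 for Rplp2. Rps7, the next gene after the called ones, had 131, 115 and 137 CPM in KO at 9 h and 148, 165 and 153 CPM in KO at 0 h, against 207, 235 and 207 CPM in WT at 9 h and 194, 191 and 191 CPM in WT at 0 h (interaction -0.46 ± 0.10, adjusted p = 0.0828). Reads of such genes may be split with their many processed pseudogene copies, so single values are uncertain. Together the ribosomal protein genes held 1.29% ± 0.0667 of counts in KO at 9 h and 1.47% ± 0.0435 in KO at 0 h, against 1.55% ± 0.0528 in WT at 9 h and 1.48% ± 0.0138 in WT at 0 h. Nuclear-encoded respiratory chain genes had a median interaction of -0.10, with 5 of 56 negative and 0 positive at an unadjusted p under 0.05 (3.28% and 3.22% over all genes), among the negative ones Sdhc (-0.46) and Uqcrb (-0.44). The 13 mitochondrially encoded transcripts tested had a median of 0.18, with 12 positive.

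**Figure D3:**
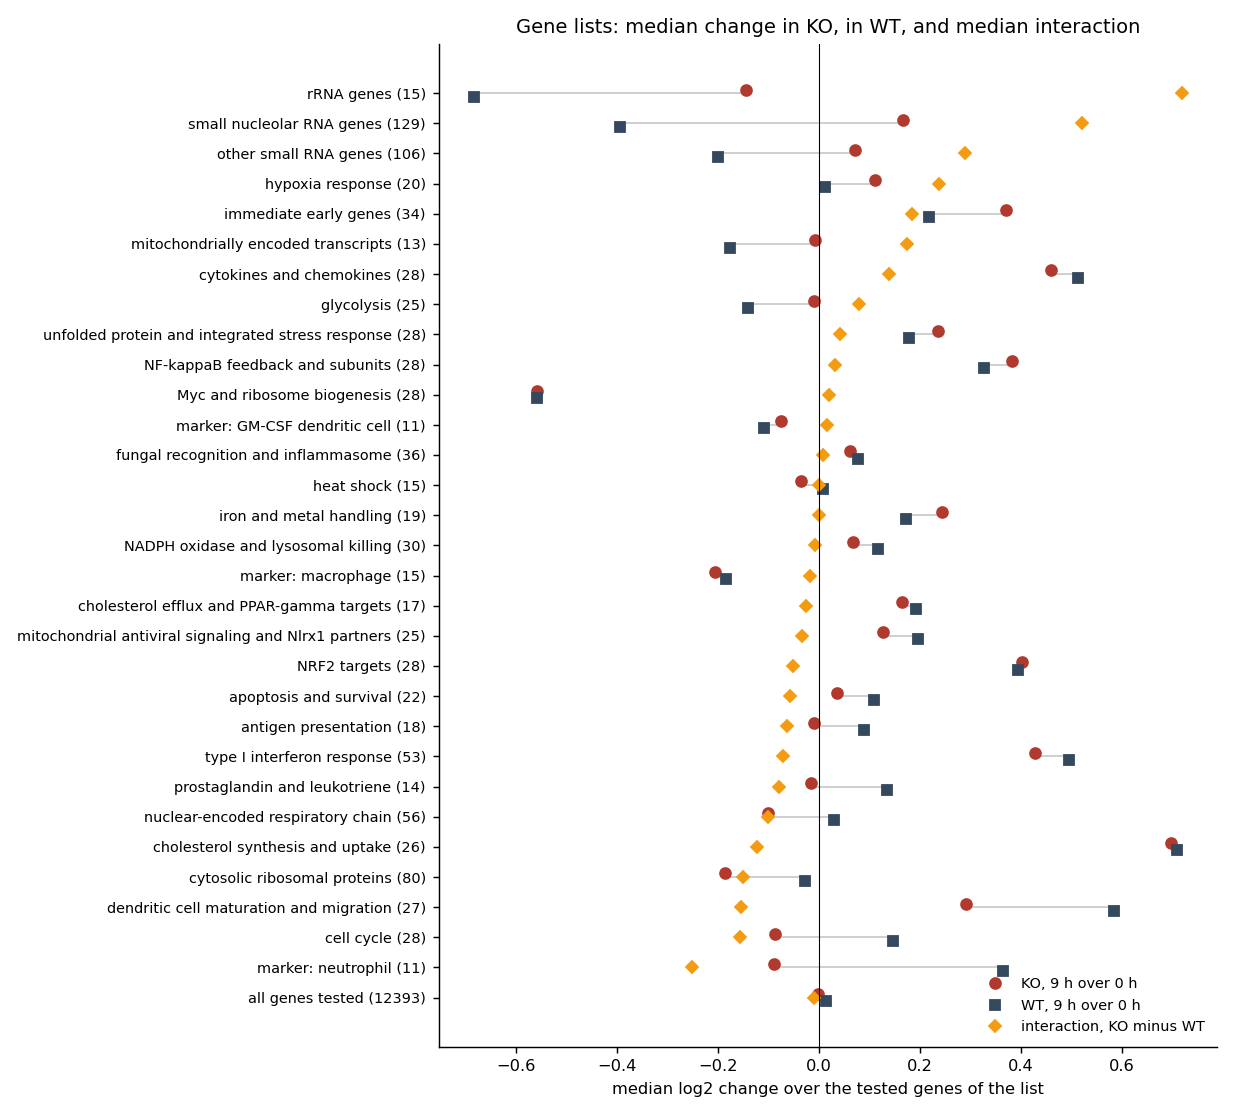
Median log2 change of 9 h over 0 h in KO (circles) and WT (squares) and median interaction (diamonds) over the tested genes of each list, with the number tested in parentheses and all genes at the bottom. The rRNA, small nucleolar RNA and hypoxia lists have median interactions of 0.72, 0.52 and 0.24, and the ribosomal proteins one of -0.15.

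Non-coding RNA genes of the ribosome pathway had the most positive list medians, with the larger median change in WT. Of 129 small nucleolar RNA genes, 106 had a positive interaction with a median of 0.52, and 39 were positive and 1 negative at an unadjusted p under 0.05, against 3.22% and 3.28% over all genes. Their median log2 change was 0.17 in KO and -0.39 in WT. The 15 rRNA genes tested had a median interaction of 0.72, with -0.14 in KO and -0.68 in WT. Gm42418 was called (interaction 0.41 ± 0.07, adjusted p = 0.0190). It is a long non-coding RNA annotated at an rDNA-like locus on chromosome 17 (positions 39846958 to 39848788, plus strand), overlapping AY036118 and the rRNA gene CT010467.1 on the other strand. It had 1438, 1533 and 1655 CPM in KO at 9 h and 1499, 1533 and 1504 CPM in KO at 0 h, against 1629.9, 1553 and 1480 CPM in WT at 9 h and 1900.5, 2143 and 2013 CPM in WT at 0 h. WT at 0 h stood above the other 3 groups. The sources used here do not say whether the counting used strand, so the reads of these 3 genes cannot be told apart.

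The composition of the libraries also differed between the groups. rRNA genes held 5.10% ± 0.478 of counts in KO at 9 h and 5.06% ± 0.295 in KO at 0 h, against 4.83% ± 1.26 in WT at 9 h and 7.35% ± 0.413 in WT at 0 h. The 3 WT 9 h libraries ranged from 3.52% to 6.03%, the widest range of the 4 groups. Small RNA genes held 3.42% ± 0.302 in KO at 9 h and 3.42% ± 0.0774 in KO at 0 h, against 6.15% ± 0.522 in WT at 9 h and 5.82% ± 0.303 in WT at 0 h. The library kit selects polyadenylated RNA, and the part of this composition in the interaction was examined only through the covariates. With the rRNA share the median of the small nucleolar RNA list was -0.01. That of the ribosomal proteins was -0.15 and that of the immediate early genes 0.14. Since the rRNA share set WT at 0 h apart, that fit can hardly separate the share from the interaction. No conclusion is drawn from its medians or its lost calls. In that fit the interaction was 1.14 for Egr1 (adjusted p = 0.0690), 0.69 for Mt1 (0.278), 0.33 for Plk2 (0.519) and 0.80 for Tnf (0.519). With the small RNA share as the covariate 9 of the 13 passed.

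**Figure D4:**
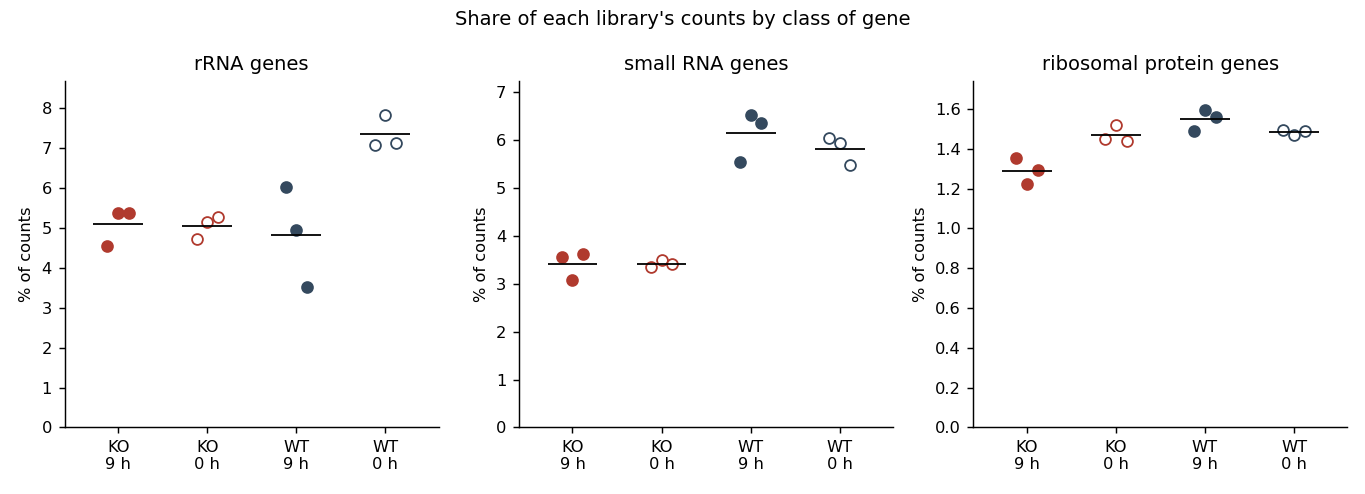
Share of each library's counts (%) in rRNA genes, small RNA genes and ribosomal protein genes, 1 point per library with a line at the group mean. WT at 0 h has the highest rRNA share (7.09% to 7.83%), the small RNA share is lower in KO at both times, and KO at 9 h has the lowest ribosomal protein share (1.22% to 1.35%).

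The remaining called genes rest on few counts or on sequence that other genes share. Gm2099, a transcribed processed pseudogene (chromosome 12, positions 87985619 to 87988959, plus strand), had 42, 38 and 34 counts in KO at 9 h and 32, 40 and 32 counts in KO at 0 h, against 29, 29 and 31 counts in WT at 9 h and 1 count in each WT library at 0 h. The WT ratio of 9 h over 0 h was 24.1 (95% exact interval 7.98 to 119, counting error only), and the fitted interaction of -4.52 ± 0.90 (adjusted p = 0.0398) comes from these 3 counts. Gm8543, a processed pseudogene (chromosome 9, positions 39074102 to 39075735, plus strand), had 37, 44 and 37 counts in KO at 9 h and 30, 48 and 40 counts in KO at 0 h, against 40, 31 and 30 counts in WT at 9 h and 73, 81 and 62 counts in WT at 0 h (interaction 1.18 ± 0.24, adjusted p = 0.0446). WT at 0 h was again the group that stood apart. Reads of pseudogenes may belong to their parent genes.

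Nectin1, a cell adhesion molecule, lies below the level of 5 CPM set for naming genes and is named after its values were seen. It had 7, 8 and 10 counts in KO at 9 h and 0, 0 and 0 counts in KO at 0 h, against 10, 8 and 13 counts in WT at 9 h and 7, 8 and 6 counts in WT at 0 h. Against a floor of 3 counts over the KO 0 h group, and with the 9 h counts taken as exact, it was at least 7.12-fold higher in KO at 9 h. The exact 95% interval of that ratio, which counts the error of both groups, begins at 5.38. The fitted interaction was 5.75 (adjusted p = 0.0398), a size that depends on the prior count. The genes next by p that did not pass included Nbeal2, a vesicle trafficking protein (-0.64, adjusted p = 0.226), Coq2, an enzyme of ubiquinone synthesis (-1.54, adjusted p = 0.226), and Mpc1, a subunit of the mitochondrial pyruvate carrier (-1.07, adjusted p = 0.251). The 5S rRNA gene n-R5s2 (1.66) and the small nucleolar RNA gene Gm23201 (1.27) had the same adjusted p of 0.226 as Nbeal2.

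Other gene lists of the antifungal response held no gene whose interaction passed. Of 53 interferon response genes, 2 rose in KO and 13 rose in WT at 9 h over 0 h, against 5.86% of all genes in KO and 5.57% in WT, although the median change was 0.43 in KO and 0.50 in WT. Their median interaction was -0.07. Before challenge their median KO minus WT value was already 0.52, and at 9 h it was 0.45, beside 0.01 and -0.001 over all genes. At an unadjusted p under 0.05 the interaction was positive for 0 and negative for 3 of the 53, where 3.22% of all genes were positive and 3.28% negative, and each of the 3 (Oasl1, Cxcl10 and Ifi205) had a group mean under 12 CPM in all groups. Oasl1 was at 0 in the 3 WT libraries at 0 h. Of 27 dendritic cell maturation and migration genes 20 had a negative interaction, beside 6362 of the 12393 genes tested. The median changes were 0.29 in KO and 0.58 in WT, and 8 rose in KO and 12 in WT, beside 5.86% and 5.57% of all genes. At an unadjusted p under 0.05 the interaction was positive for 1 and negative for 4 of the 27, beside 3.22% and 3.28%. Cacnb3, a calcium channel beta subunit, averaged 19.3 ± 1.42 CPM in KO at 9 h and 11.7 ± 4.04 CPM in KO at 0 h, against 39.1 ± 0.185 CPM in WT at 9 h and 12.8 ± 1.67 CPM in WT at 0 h. Its interaction of -0.88 did not pass (unadjusted p = 0.0257). Ccr7, the receptor that guides dendritic cells to lymph nodes, rose by 1.21 in KO and 1.69 in WT, with an interaction of -0.48 ± 0.36. Of 26 genes of cholesterol synthesis and uptake 13 rose in KO and 14 in WT, with median changes of 0.70 in KO and 0.71 in WT. Of 28 NRF2 targets 12 rose in KO and 17 in WT, with median changes of 0.40 in both. Clec7a, which encodes dectin-1, fell by 0.30 in KO and by 0.28 in WT, with an interaction of -0.03 ± 0.07. Of 36 genes of fungal recognition and the inflammasome, the median interaction was 0.01, and at an unadjusted p under 0.05 it was positive for 2 and negative for 5, where 3.22% of all genes were positive and 3.28% negative.

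The same interaction was read at the other times for the called genes. All 4 time points use the same 0 h libraries, so their values are not independent, and they are given side by side only. At 3 h and at 6 h the interaction passed for 0 genes. At 12 h it passed for 90 genes (0.726%), 66 of them higher (0.533%) and 24 lower (0.194%). Among the 90 were 8 of the 13: Egr1, Mt1, Gm42418, Cdk18, Epc1, Gm8543 and Nectin1 higher and Gm2099 lower. The rRNA share in WT was 6.78% to 8.21% at 3 h, 7.23% to 7.67% at 6 h and 4.29% to 4.78% at 12 h. In KO it ran from 4.36% to 5.52% over these times. The part of this share in the counts of genes was not tested. For Egr1 the interaction was 0.47 at 3 h, 0.84 at 6 h (adjusted p = 0.0618), 1.20 at 9 h and 0.62 at 12 h. Its level in KO averaged 34.4 ± 2.40, 48.9 ± 3.66, 54.9 ± 4.0, 94.2 ± 11.8 and 283 ± 6.56 CPM at 0, 3, 6, 9 and 12 h, and in WT 45.0 ± 2.67, 46.4 ± 5.53, 40.0 ± 4.82, 53.9 ± 1.58 and 241 ± 25.7 CPM. The KO cells were above WT at 6, 9 and 12 h.

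Tnf had interactions of 0.19, 0.40, 0.73 and 0.34 at 3, 6, 9 and 12 h. It averaged 71.7 ± 7.93, 82.8 ± 6.67, 106 ± 4.58, 227 ± 33.1 and 759 ± 5.69 CPM in KO at 0, 3, 6, 9 and 12 h, and 74.5 ± 2.79, 75.2 ± 5.67, 83.7 ± 11.3, 143 ± 9.18 and 623 ± 83.5 CPM in WT. Both genotypes had their highest level at 12 h. Mt1 had interactions of 0.36, 0.19, 0.71 and 0.51 at 3, 6, 9 and 12 h, and Plk2 had 0.09, -0.01, 0.39 and 0.20. For Fnip2 the values were 0.21, 0.15, 0.53 and 0.42, for Olfm1 0.14, 0.20, 0.54 and 0.06, and for Rplp1 -0.17, -0.13, -0.32 and -0.02. For Tnf, Plk2, Fnip2, Olfm1 and Rplp1 the 12 h value did not pass. Whether the 9 h value of a gene differs from its 12 h value was not tested.

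**Figure D5:**
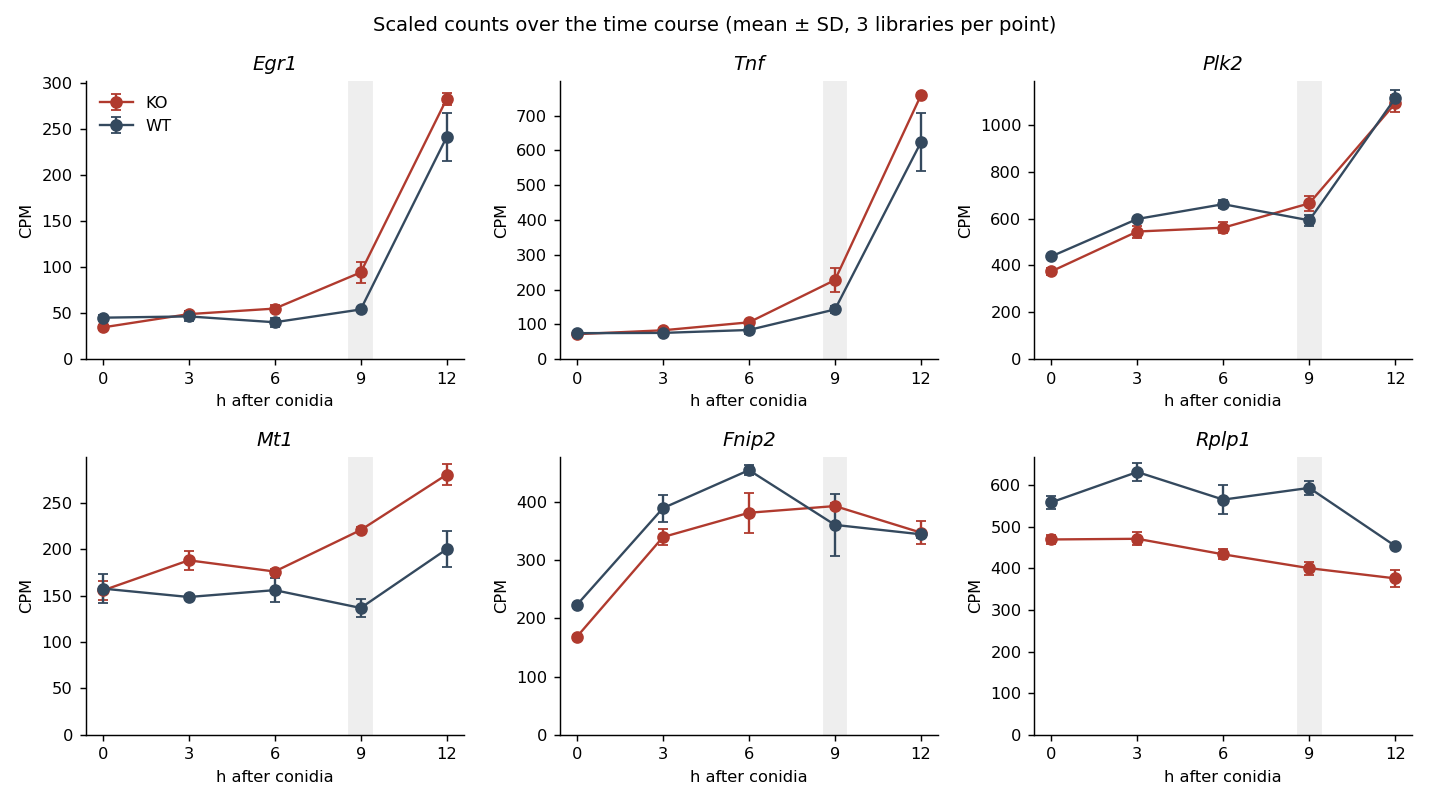
Scaled counts (CPM, mean ± SD, 3 libraries per point, linear axis starting at 0) of 6 called genes at 0, 3, 6, 9 and 12 h in KO (red) and WT (blue), with 9 h shaded. Egr1 and Tnf are higher in KO at 9 h, at 94.2 and 227 CPM against 53.9 and 143 CPM in WT, and reach 283 and 759 CPM in KO and 241 and 623 CPM in WT at 12 h.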

How the data were processed

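RNA of 30 libraries of GM-CSF cultured mouse bone marrow cells (10 groups of genotype and time, 3 libraries each) had been sequenced, per the labels' protocols, from stranded polyA-selected libraries. The table the authors deposited has whole-number counts for each Ensembl gene, with totals of 1722384 to 3509429 per library (median 2492886), and these values were read as raw counts. The submitters' processing notes name the build GRCm38 and the tools HISAT2, StringTie, Trimmomatic 0.35 and DESeq2. The sources used here do not give the strand setting or the counting step, and counts derived from StringTie can be rounded estimates. The authors' own tables of comparisons were not used.

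Names, biotypes and positions came from GENCODE M21 (54495 of 54532 IDs matched). Genes were filtered with filterByExpr of edgeR 4.0.16 (R 4.3.3; minimum count 10), which kept 12393 genes and 98.7% of counts. Scaling was by TMM. All 30 libraries entered 1 negative binomial fit with a coefficient for each group, and the interaction and its components were tested by its quasi-likelihood test (glmQLFit, robust), with Benjamini-Hochberg adjustment across the 12393 genes and a threshold of 0.05. CPM are TMM-scaled; SEs are the log2 value divided by the square root of F. Genes named were those called with a group mean of at least 5 CPM, the next by p up to 20 in all, and anchor genes of the response. The gene lists and the genes compared were chosen with earlier results of these data known, and lists are described, not tested. Within groups, library pairs differed by more than sampling noise (chi-square per degree of freedom 2.48 to 8.40, the highest between WT 9 h replicates 1 and 3). In simulated counts for 12202 genes the fit recovered 25 of 100 interactions of 1.5-fold and 73 of 100 of 2-fold. Alternatives were RLE size factors, DESeq2 1.42.0, limma 3.58.1 (voom), no count filter, the 12 libraries alone, a replicate block, composition covariates, protein-coding genes alone and leaving out each library. Intervals and floors cover counting error only. 0 columns of per-sample values were left unused.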

Additional observations from a re-analysis of the deposited data

Results flagged for a closer look

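The change of 9 h over 0 h differed between KO and WT by the test of the difference itself, edgeR's quasi-likelihood test (Benjamini-Hochberg adjusted), for 13 genes, each in 3 libraries per group. The log2 interaction was positive for Egr1 (1.20), Mt1 (0.71), Plk2 (0.39), Gm42418 (0.41), Cdk18 (0.55), Olfm1 (0.54), Fnip2 (0.53), Epc1 (1.26), Gm8543 (1.18), Tnf (0.73) and Nectin1 (5.75), and negative for Gm2099 (-4.52) and Rplp1 (-0.32). With 3 libraries per group, single libraries that stand apart from their group were not tested for. The pair that differed most was WT at 9 h, replicates 1 and 3 (chi-square per degree of freedom 8.40, beside at most 4.96 elsewhere). Their rRNA shares were 6.03% and 3.52%.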

How the results depend on the processing

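The number of genes called in the 9 h interaction was 13. It was 12 with RLE size factors, 16 with DESeq2 (10 shared with the 13), 8 with limma-voom, 2 with no count filter, 4 with the 12 libraries alone, 9 with the small RNA share as covariate, 0 with the rRNA share as covariate (edgeR; 632 genes at an unadjusted p under 0.05; the covariate was not run in the other tools) and 8 among protein-coding genes only. The last 2 alternatives and the list medians under settings beyond the planned ones were chosen after seeing the data. Leaving out 1 library gave 3 to 25 genes, with the filter applied anew. The replicate block gave 9 genes with 30 libraries and 3 (2 of the 13) with 12 libraries. The replicate numbers share only a number: correlations of deviations between libraries with the same number were -0.26 to 0.06, with 0 of 18 over 0.1. No interaction of the 13 called genes changed sign in any setting, and the cause of lost calls was not tested. Some named genes that did not pass did change sign, such as Cxcl1 (-0.08 to 0.61 over the settings) and Nfkbia (-0.12 to 0.07). With the small RNA share as covariate the KO minus WT value at 9 h reversed for Plk2 (-0.12), Cxcl2 (-0.18), Ptgs2 (-0.32) and Gem (-0.40), and that at 0 h for Rps7 (0.083). With the rRNA share the WT change of Nbeal2 reversed (-0.000469). No setting moved the median of all genes by more than 0.1. Low genes rest on few counts, and at these totals interactions of 1.5-fold were mostly not detectable (25 of 100 simulated).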
